A study of Mus musculus with 6 samples.

Results

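Exons of more than 30 and fewer than 400 bases that lie between long introns on both sides were compared between CD4+ T cells that lack CD2BP2/U5-52K (cKO) and Control cells. Of 46394 skipped exon events listed for these cells, 3848 met the rule, which asks for a distance of at least 10000 bases from the exon to the next exon of the event on each side. They cover 2382 exons of 1235 genes. An event is 1 exon with 1 pair of neighbouring exons, so that an exon can belong to several events, up to 11 among those tested. The rule uses lengths only and no measured value.

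CD4+ T cells were sorted from pooled spleen and peripheral lymph nodes of adult mice, with 3 libraries a condition. The cKO mice carried floxed alleles on both chromosomes with the Cre transgene (CD4-Cre tg, U5-52K f/f). This Cre acts from the thymocyte stage onwards, before the cells reach spleen and lymph nodes. In Control, 2 libraries carried the transgene with 1 floxed allele (CD4-Cre tg, U5-52K wt/f) and 1 had floxed alleles without it (CD4-Cre-, U5-52K f/f), so genotype and Cre differ within this group. By the study's methods the RNA came from 3 mice a condition, so the p-values refer to the variation among mice. The table of events lists 3 values a condition without library names, and they are given here in their listed order.

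Introns are removed by the spliceosome, and in vertebrates the machinery usually finds an exon by pairing the splice sites across it, a process called exon definition. An exon whose neighbours are far away depends on this pairing, since the splice sites across its introns lie many bases apart. When the pairing fails the exon is left out and its neighbours are joined, which is recorded as skipping. CD2BP2 is a component of the free U5 snRNP that is released when the tri-snRNP forms.

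The targeted gene was checked first. Cd2bp2 had 2624 normalized counts in CTRL_1.2, 2602 in CTRL_3.4 and 2612 in CTRL_5.6, while KO_7.8 had 884, KO_9.10 had 874 and KO_11.12 had 738. The groups did not overlap, and the log2 fold change was -1.65 ± 0.11 (SE, n = 3 a group, limma, adjusted p = 0.00137). Reads in genes ranged from 56995121 to 82286366 a library. The 6 CD4+ T cell markers (Cd3d, Cd3e, Cd3g, Cd4, Thy1 and Lat) summed to 326534 to 381027 normalized counts in Control and 318385 to 351277 in cKO. Summed markers of B cells were 6763 to 9733 in Control and 2960 to 5629 in cKO, and those of NK cells were 2001 to 2861 and 2793 to 3958. The 5 myeloid markers summed to 20846 in KO_7.8 and to 2585 to 4800 in the other 5 libraries, and 3 erythroid markers reached 4032 in CTRL_5.6 and 3042 in KO_7.8 against 140 to 462 elsewhere. The 2 CD8+ T cell markers summed to 710 to 1571 in Control and 614 to 916 in cKO. No marker on these lists that entered the test had an adjusted p under 0.05 in limma, and the part of these cells in the splicing values was not tested.

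Sequences of exons that carry the result are shown as the RNA strand of the GENCODE M21 annotation of GRCm38, as DNA letters, with the 3 bases at each end of the exon in capitals because these bases lie at the splice sites. The first set holds exons of genes with a known place in T cells, and all were included less in cKO. Exon 3 of Bcl11b is at chr12:107965672-107965887 on the minus strand and the shortest of the set, the 48 base exon of Skap1, is at chr11:96723350-96723397 on the plus strand. The exon of Tgfbr2 is at chr9:116158271-116158345 (minus strand) and that of Cd96 at chr16:46094740-46094795 (minus strand).
Bcl11b: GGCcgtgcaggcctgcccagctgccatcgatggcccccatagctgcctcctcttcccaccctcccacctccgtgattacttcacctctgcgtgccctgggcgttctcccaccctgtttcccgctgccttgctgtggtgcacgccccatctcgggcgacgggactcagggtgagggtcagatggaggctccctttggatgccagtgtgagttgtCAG
Skap1: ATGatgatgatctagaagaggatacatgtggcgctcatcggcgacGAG
Tgfbr2: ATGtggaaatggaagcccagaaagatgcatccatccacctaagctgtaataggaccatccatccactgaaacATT
Cd96: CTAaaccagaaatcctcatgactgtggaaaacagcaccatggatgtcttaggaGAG
A second set shows a pair of exons of Fam169b that were skipped together, at chr7:68321820-68321905 and chr7:68329222-68329399 (plus strand).
Fam169b exon 4: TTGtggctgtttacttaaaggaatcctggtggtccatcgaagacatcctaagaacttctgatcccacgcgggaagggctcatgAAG
Fam169b exon 5: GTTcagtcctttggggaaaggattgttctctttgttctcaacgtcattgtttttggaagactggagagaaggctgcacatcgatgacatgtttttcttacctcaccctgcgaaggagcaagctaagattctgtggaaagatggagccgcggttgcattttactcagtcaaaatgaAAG
The last pair shows how the 2 forms of the Foxn3 exon differ. Both start at the same base and the longer one, at chr12:99219598-99219663 (minus strand), runs 3 bases further into the intron than the shorter one at chr12:99219601-99219663. Only their last 24 and 21 bases are given, with the 3 added bases in capitals.
Foxn3, 66 base exon: ctccccctgagatacaagcagGTT
Foxn3, 63 base exon: ctccccctgagatacaagcag

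Inclusion is the share, in percent, of the form that holds the exon among the included and skipped forms of 1 event. It was computed from the reads of each form divided by the length on which such reads can fall. It is not a share of all transcripts of the gene, and the same exon can have different values in different events. Differences are cKO minus Control in percentage points, so a negative value means more skipping in cKO. To be tested, an event needed 20 reads or more on average in Control and in cKO, which 2788 of the 3848 events had, on 1865 exons of 985 genes. The remaining 1060 had too few reads. An event was called at an adjusted p under 0.01 with a difference of at least 10 points.

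Of the tested events between long introns, 38 were called and all 38 had lower inclusion in cKO. That is 1.36% of them, beside 0.495% of all 39173 tested events. Over all tested events, 159 were called with lower inclusion (0.406%) and 35 with higher inclusion. The 38 events lie on 35 exons of 29 genes and had 139 to 25602 reads each, and 9 of them had fewer than 500. Their differences ran from -53.5 to -10.3 points with a median of -18.2. In 37 of the 38, every cKO library was below every Control library. Events called from these same libraries tend to show this order, so it adds no support. It was found in 17.1% of the tested events between long introns and 8.61% of all tested events. In the 6 fits that left out 1 library each, 17 of the 38 calls were kept throughout and 21 were lost at least once, with 22 calls in all without the first listed Control library and 25 without the second. No event rose past the call thresholds (quasi-binomial test with limma moderation), and at an unadjusted p under 0.05 the test counted 438 lower and 9 higher events. The largest rise was 13.5 points and did not pass, and 120 events fell by at least 10 points without being called while 7 rose by as much. Lower inclusion in cKO was also the more frequent direction over all tested events. At a mean inclusion of 10 to 90% it was found in 65.6% of them, beside 81.2% between long introns.

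The number of calls depends on the test. edgeR called 0 of the 2788 events and limma on log2 ratios also called 0. Over all 39173 tested events they called 1 and 0. At an unadjusted p under 0.05 edgeR nevertheless counted 365 lower and 3 higher events between long introns and limma 439 and 19. Among the 494 events whose rarer form had at least 5 reads a library, edgeR called 20 events (4.05%), all lower, and each of these 20 is among the 38. Over all 7838 tested events with such a rarer form it called 60 (0.766%).

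A call belongs to 1 pair of neighbouring exons. Of the 35 called exons, 22 were also tested with other neighbours between long introns without being called, in 43 events with differences from -30.7 to 11.6 points (median -1.63), of which 37 were below 0 and 6 above.

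**Figure D1:**
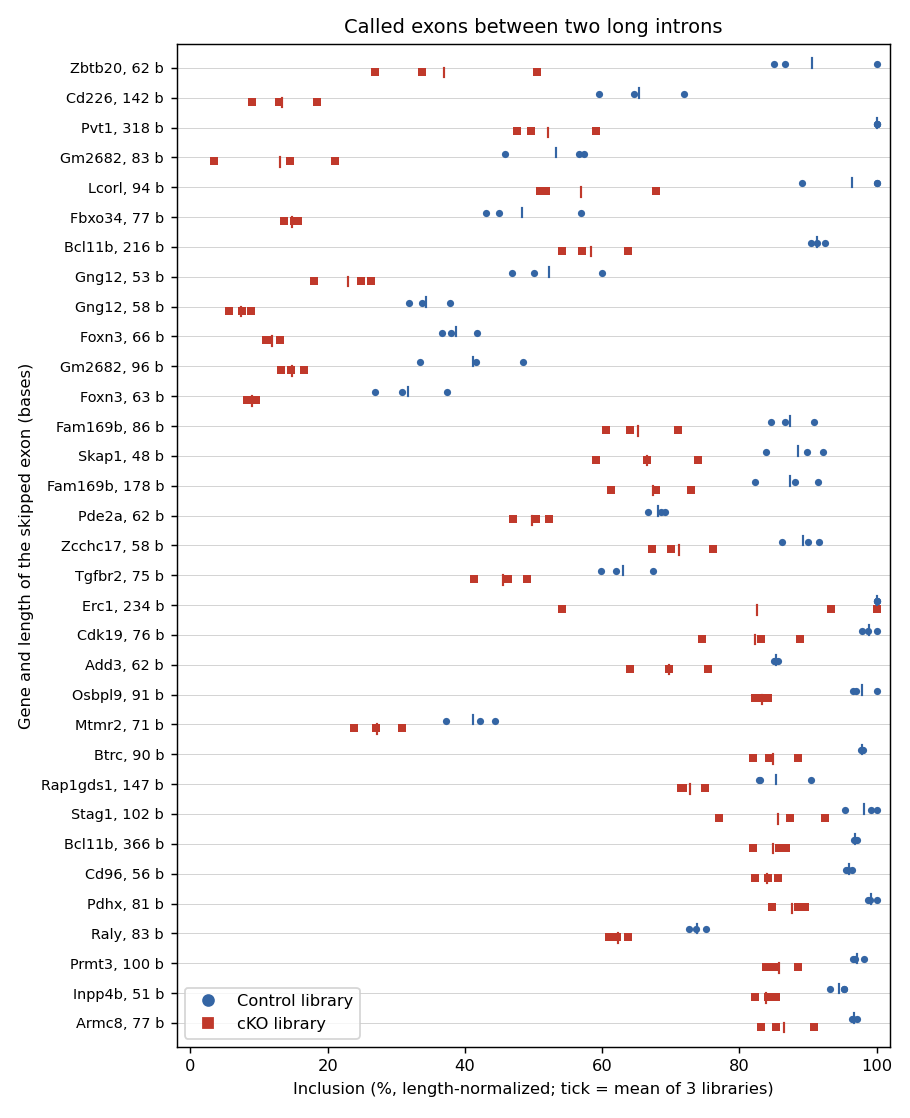
Inclusion in percent (x axis) of 33 of the called exons (y axis: gene and exon length in bases, the called event with the most reads per exon, ordered by difference). Events of these exons that were not called are not drawn, and some of them have more reads. Circles are the 3 Control libraries, squares the 3 cKO libraries and short lines their means, and in every exon drawn but that of Erc1 all squares lie left of all circles.

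Transcription factors of T cells were a list with 26 genes and 175 tested events between long introns. Of these events 8 were called lower and 0 higher, in Bcl11b, Foxn3 and Zbtb20. That is 4.57%, beside 1.36% of the tested events between long introns and 0.495% of all tested events. The median difference was -0.853 points, beside -0.632 over the tested events between long introns and -0.176 over all tested events. All 4 called Foxn3 events concern the same stretch of exon, as do both of Zbtb20. The 2 of Bcl11b share their skipping reads, so the 8 calls are not separate. In 46 of the 175 events (26.3%) all cKO libraries were below all Control libraries, beside 17.1% of the tested events between long introns and 8.61% of all tested events.

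Bcl11b, a zinc finger factor that T cells need to commit to and keep their lineage, had both of its middle exons among the calls. Inclusion of the 216 base exon 3, measured against a junction that leaves out exons 2 and 3 together, was 91.3, 92.4 and 90.4% in Control and 54.1, 63.8 and 57.0% in cKO. Every cKO library was lower, and the means differed by -33 points (91.3% ± 0.993 against 58.3% ± 5, SD, n = 3 a group, adjusted p = 2.52e-06 in the test with limma moderation). The 366 base exon 2 at chr12:107989465-107989830, measured against the same junction, had 97.1, 96.9 and 96.7% in Control and 85.8, 86.8 and 82.0% in cKO, a difference of -12 points (adjusted p = 2.99e-05). These 2 events share their 153 skipping reads, of which 7, 10 and 5 came from the Control libraries and 17, 47 and 67 from the cKO libraries. When exon 3 was measured against direct joining of exons 2 and 4, it was included at 31.7, 33.5 and 30.3% in Control and 23.8, 24.3 and 25.6% in cKO. That difference of -7.26 points did not reach the call thresholds (adjusted p = 0.0162). Exon 3 is coding, and its length is a multiple of 3.

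Foxn3 encodes a forkhead repressor. Its 66 base exon, the second of 4 in its annotated transcript, is annotated only as part of the nonsense-mediated decay type. It was included at 37.9, 36.6 and 41.7% in Control and 11, 13.1 and 11.5% in cKO. The groups were far apart, with means of 38.7% ± 2.66 and 11.9% ± 1.10 (SD, n = 3 a group) and a difference of -26.8 points (adjusted p = 9.02e-18 in the test with limma moderation). The 63 base form, annotated only as part of the processed type, was at 30.8, 26.9 and 37.4% in Control and at 8.32, 9.61 and 8.83% in cKO, a difference of -22.8 points. The 2 forms overlap and were set against the same 2875 skipping reads. Against another downstream exon, skipping of both forms was seen in cKO alone, with 0 skipping reads in each Control library and 5, 10 and 8 in the cKO libraries, and both of these calls were lost without the first or the second listed Control library. The other Foxn3 exons named by the rule stayed near full inclusion, with differences of -1.30 points (adjusted p = 0.181) and -1.09 points (adjusted p = 0.0998).

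Zbtb20, a zinc finger repressor of the BTB family, had the called exon with the longest introns. The 62 base exon at chr16:43232759-43232820 lies in the 5′ UTR between gaps of 207771 and 69748 bases. Its inclusion was 86.7, 85.0 and 100% in Control and 50.5, 33.7 and 26.9% in cKO. The groups did not overlap and the difference was -53.5 points, the largest fall among the 38 events (adjusted p = 0.00205). Only 186 reads in all, and as few as 6 in a library, were behind it, and the call was lost without the first or second listed Control library or the third cKO library, with an adjusted p of up to 0.048. Against other upstream exons and the same downstream exon, it differed by -46.9 points (called), -30.7 and -19.1 points (not called), and with a nearer downstream exon as well by -4.13 points (not called).

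On the list of T cell receptor signaling genes, 23 genes had 147 tested events, of which 2 were called lower and 0 higher, a share of 1.36%, which is that of all tested events between long introns. The median was -0.151 points, nearer to 0 than the -0.632 points of all tested events between long introns. These 2 calls were in Skap1 and Inpp4b. In 35 events (23.8%) all cKO libraries were below all Control libraries, beside 17.1% between long introns and 8.61% of all tested events.

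Skap1 is an adaptor that links the T cell receptor to integrin adhesion. Its 48 base coding exon was included at 83.8, 92.2 and 89.8% in Control and 66.6, 74.0 and 59.1% in cKO, a difference of -22 points without overlap. The call was kept whichever single library was left out. It was lost, at an adjusted p of 0.01, when the dispersion of an event was not allowed below its own estimate. A second Skap1 exon, of 101 bases, moved by -1.41 points from nearly full inclusion, which is under the minimum difference although its adjusted p was 0.000128.

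Inpp4b, a phosphatase that removes phosphate from a lipid product of PI3K signaling, had a 51 base exon between gaps of 73531 and 12185 bases. It was measured with 10151 reads, and inclusion was 95.2, 95.2 and 93.2% in Control and 84.2, 85.3 and 82.3% in cKO. The fall was 10.6 points, just past the minimum, and the call was lost without the third listed cKO library. Themis, which acts in thymocyte selection, had a 153 base exon at 97.7, 98.0 and 95.5% in Control and 87.2, 87.9 and 90.1% in cKO. Its difference of -8.68 points stayed under the minimum of 10 although the adjusted p was 5.67e-06.

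Cd226, a receptor that co-stimulates T and NK cells, had the second largest fall. Its 142 base exon (chr18:89231523-89231664) is annotated only as part of the nonsense-mediated decay type. Inclusion of this exon was 59.5, 71.9 and 64.6% in Control and 9.02, 12.9 and 18.4% in cKO, a difference of -51.9 points (adjusted p = 0.000108), and no single library was needed for the call. This holds for 1 upstream neighbour only, with 301 reads, since against 2 other upstream exons the same exon differed by -13.9 points (adjusted p = 0.692) and -2.48 points (adjusted p = 0.36). Cd96, a receptor that shares a ligand with Cd226, lost part of a 56 base coding exon, which was at 95.6, 96.4 and 95.8% in Control and at 85.6, 84.2 and 82.2% in cKO. The difference was -11.9 points and kept its call in each fit that left out a library. Sorted cells are a mixture of states, and with bulk RNA a change in the share of cells that use an exon and a change in its use within each cell cannot be told apart.

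Tgfbr2, the type II receptor of TGF-beta, has a 75 base exon that is included in part of its transcripts. It was one of the 3 best measured exons of intermediate inclusion, chosen for their read numbers and not for their change. With 5395 reads, inclusion was 67.4, 59.9 and 62.0% in Control and 41.3, 49.1 and 46.3% in cKO. All cKO libraries were lower, by 17.6 points in the mean (63.1% ± 3.90 against 45.6% ± 3.96, SD, n = 3 a group, adjusted p = 2.36e-07). Against a downstream exon 47967 bases away the same exon was almost always included and differed by -0.455 points. Raly, an RNA-binding protein of the hnRNP family, gave the deepest measurement, with 25602 reads. Its 83 base exon 2 in the 5′ UTR was included at 73.6, 72.7 and 75.2% in Control and 63.7, 62.2 and 61.0% in cKO, a fall of 11.5 points with no overlap. The last of the 3 was Pde2a, a phosphodiesterase of cyclic nucleotides, whose 62 base coding exon went from 69.1, 68.6 and 66.7% to 47.0, 52.2 and 50.4%, a difference of -18.3 points. This exon is annotated only in transcripts of the nonsense-mediated decay and processed types. Its event had 284 to 1062 reads a library, more than the 89.3 to 258 normalized counts of the whole gene. Whether these reads come from Pde2a was not tested.

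Pairs of exons left out together made up part of the calls. In Bcl11b, Fam169b and the non-coding gene Gm2682, a single junction skipped 2 separate called exons, so that each pair shares its skipping reads and is 1 observation of skipping rather than 2. Exons 4 and 5 of Fam169b differed by -22.2 and -19.9 points, with 41, 25 and 23 skipping reads in Control and 63, 90 and 114 in cKO, and both kept their calls in every fit without 1 library. Gm2682 had 34, 29 and 31 skipping reads against 89, 72 and 106, and differences of -40.3 and -26.4 points, the second of which was not called without the third listed Control library. Against 2 other downstream exons this second Gm2682 exon had higher means in cKO, by 2.69 points with 2035 reads (adjusted p = 0.692) and 11.6 points with 598 reads (adjusted p = 0.639), neither of them called. In total 7 of the 31 skipping junctions behind the calls served more than 1 called event.

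Other large falls were in genes outside these groups. Fbxo34, an F-box protein, had a 77 base 5′ UTR exon at 56.9, 45.0 and 43.1% in Control and 15.1, 15.7 and 13.7% in cKO (-33.5 points). Gng12, a gamma subunit of G proteins, had 2 overlapping 5′ UTR exons of 53 and 58 bases that differed by -29.3 and -27.1 points and share 666 skipping reads. Lcorl, a DNA-binding factor, had a 94 base coding exon at 100, 100 and 89.1% in Control and 51.8, 67.9 and 51.0% in cKO (-39.5 points). The long non-coding RNA Pvt1 had a 318 base exon at 100% in each Control library and at 49.7, 59.1 and 47.6% in cKO (-47.9 points). This holds for 1 upstream neighbour only, since against another one and the same downstream exon, with 550 reads, the Pvt1 exon was at 54, 71.6 and 64.4% in Control and 53.6, 61.5 and 64.8% in cKO (-3.39 points, adjusted p = 0.883). The calls of Fbxo34, Lcorl and Pvt1 rest on 300, 292 and 333 reads, and each was lost in at least 3 of the 6 fits without 1 library.

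The remaining called exons are named here after their values were seen. They lie in Zcchc17 (-18), Erc1 (-17.5), Cdk19 (-16.7), Add3 (-15.5), Osbpl9 (-14.6), Mtmr2 (-14), Btrc (-13), Rap1gds1 (-12.7), Stag1 (-12.6), Pdhx (-11.6), Prmt3 (-11.4) and Armc8 (-10.3), each value being the difference in points. Erc1 stands apart, since inclusion was 100% in each Control library but 100, 54.2 and 93.3% in cKO. Its groups overlapped and its adjusted p was 0.279 when the dispersion was not allowed below the event's own estimate. Stag1, a cohesin subunit, likewise varied between cKO libraries, at 77.0, 92.4 and 87.4%, and had an adjusted p of 0.231 in that fit. The calls of Add3 (adjusted p = 0.0123) and Mtmr2 (adjusted p = 0.0112) were also lost in that fit. Of these 12 exons, those of Zcchc17 and Pdhx kept their calls whichever library was left out. Osbpl9 kept it in 5 of the 6 fits, and Cdk19, Mtmr2 and Prmt3 in 3. Erc1 and Stag1 kept it in only 2, and Add3, Btrc, Rap1gds1 and Armc8 in only 1. Zcchc17 had 90, 91.6 and 86.2% in Control and 67.3, 76.2 and 70.1% in cKO.

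Lists of other gene groups gave few or no calls between long introns. Splicing and RNA-binding proteins had 48 tested events in 10 genes, with 2 called lower, 0 higher and a median of -0.249 points. Mbnl1 and Celf1, regulators of alternative splicing, were not called. The Mbnl1 exon of 114 bases was at 18.2, 17.7 and 15.6% in Control and 14.1, 15 and 11.8% in cKO (adjusted p = 0.0541). The Celf1 exon of 152 bases was at 26.5, 23.8 and 27.6% in Control and at 40.8, 29.0 and 31.4% in cKO, so that all 3 cKO libraries were higher (adjusted p = 0.119). GTPase regulators had 157 events in 24 genes with 1 called lower, in Rap1gds1, 0 higher and a median of -0.308 points. Arhgap15, a GTPase-activating protein for Rac, had 4 exons between long introns with small adjusted p values. The one with the largest difference went from 96.8, 97.8 and 97.6% to 89.7, 90.8 and 89.2%, a difference of -7.48 points (adjusted p = 1.04e-13), and the others moved by -1.98, -1.85 and -1.72 points. All 4 stayed under the minimum difference.

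Chromatin regulators had 76 events in 26 genes with 0 calls and a median of -0.524 points. Atrx, a chromatin remodeler, came nearest, with 71.6, 60.8 and 82.5% in Control and 59.9, 37.5 and 32.9% in cKO and an adjusted p of 0.0114. Exons of Kmt2e (-9.40 points, adjusted p = 0.0933) and Jarid2 (-3.35 points, adjusted p = 0.0475) were not called either. Ubiquitin ligases and deubiquitinases had 46 events in 20 genes with 0 calls and a median of -0.497 points. The Usp15 exon had -6.28 points at an adjusted p of 0.00927, under the minimum difference, while Usp3, Ube2g1 and Fbxl17 had adjusted p values of 0.612, 0.622 and 0.569. Genes of the p53 pathway and apoptosis had only 5 tested events in 3 genes, Casp8, Bcl2l13 and Bcl2l11, with 0 calls, and their differences lay between -0.875 and 3.42 points. Sp100 was near full inclusion in its 51 base exon, with a difference of -0.469 points (adjusted p = 0.831). That event had 424 reads, 1 of them a skipping read, and as few as 12 in a library. The exon is number 10 of 20 in its transcript. The paper reports reduced inclusion of a Sp100 exon under another number, and whether it is the same exon was not tested.

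The share of calls differed with how often the exon was included, which was not tested. Of the 38 events, 20 had a Control inclusion of at least 90% and 6 were under 50%. Among tested events with a mean inclusion of 10 to 50%, 9 of 90 were called (10%), among those of 50 to 90% 19 of 182 (10.4%), and among those of 90 to 95% 10 of 176 (5.68%). Over all tested events the same bands had 5.02%, 4.61% and 0.843%. None of the 736 events at 95 to 99% or the 1485 above 99% was called, where there is little room for a fall of 10 points in the mean, but differences below 0 were the more frequent ones there too, in 588 and 1163 events with medians of -2.12 and -0.326 points. Over all tested events these 2 bands had medians of -0.87 and -0.112 points.

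**Figure D2:**
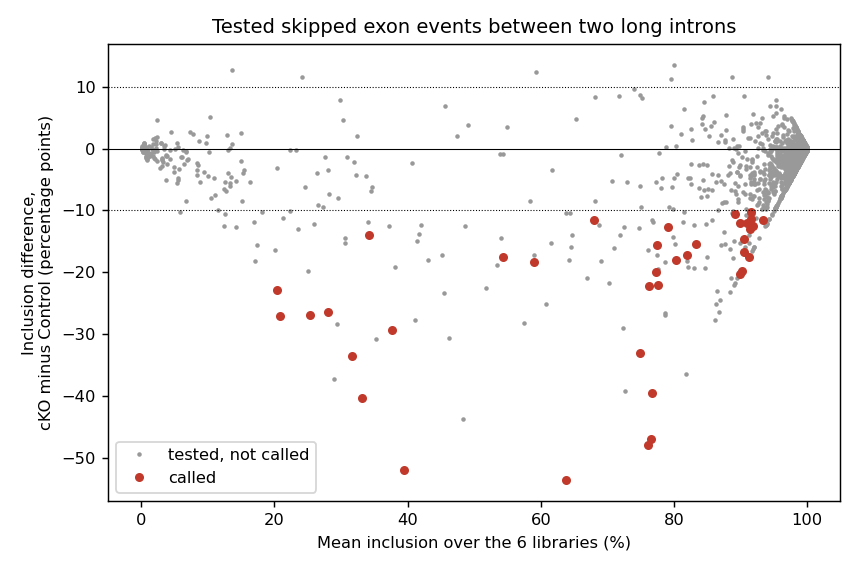
Difference in inclusion, cKO minus Control in percentage points (y axis), against mean inclusion over the 6 libraries in percent (x axis), for the 2788 tested events between long introns. Large red points are the 38 called events, small grey points all others, and the dotted lines mark 10 points in each direction; all called events lie below the lower line.

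The shift was seen in each cKO library. In the 272 tested events with a mean inclusion of 10 to 90%, the median distance from the Control mean was -0.447, 0 and 0.653 points in the Control libraries and -8.76, -8.10 and -8.61 points in the cKO libraries. In the 3454 other events of this band it was -0.217, -0.0319 and 0.398 points in Control and -2.53, -3.25 and -3.02 points in cKO. The Control values lie around 0 by construction, since the distance is taken from their own mean. The 3 cKO libraries lay within 1 point of each other on both measures.

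**Figure D3:**
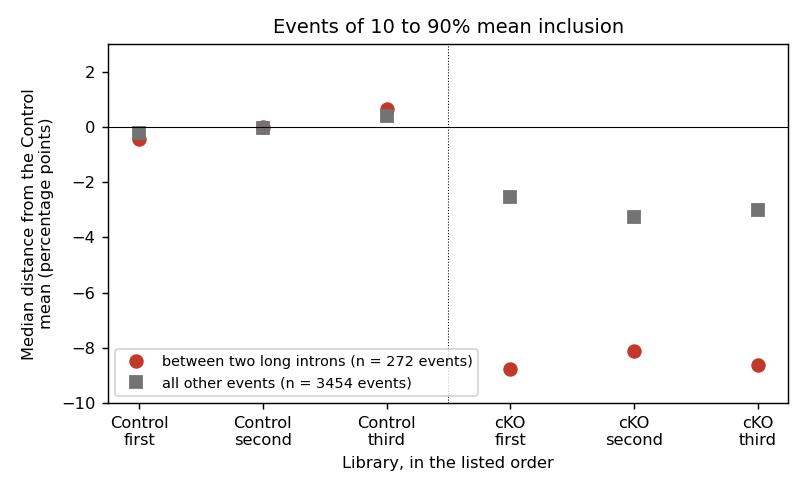
Median distance from the Control mean inclusion in percentage points (y axis) for each library in its listed order (x axis), over events with a mean inclusion of 10 to 90%. Circles are the 272 events between long introns and squares the 3454 other events, and the circles of the 3 cKO libraries sit between -8.76 and -8.10 while the squares sit between -3.25 and -2.53.

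The exons were set beside those of the same length with other flanking introns, as a description without a test. With a long upstream intron only, 12 of 3720 tested events were called (0.323%), 9 of them lower. With a long downstream intron only it was 21 of 2235 (0.94%), 20 of them lower, and with neither it was 107 of 28697 (0.373%), 81 of them lower. Median differences over all tested events were -0.632 points with both introns long, -0.229 with the upstream one only, -0.467 with the downstream one only and -0.123 with neither. In the band of 10 to 90% inclusion they were -8.35, -3.87, -5.02 and -2.86 points, and 81.2%, 68.5%, 75.2% and 62.6% of events were below 0. The share of events with all cKO libraries below all Control libraries was 17.1% with both long and 8.25%, 12.7% and 7.43% in the other classes, while the opposite order was found in 0.646%, beside 2.19% of all tested events.

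**Figure D4:**
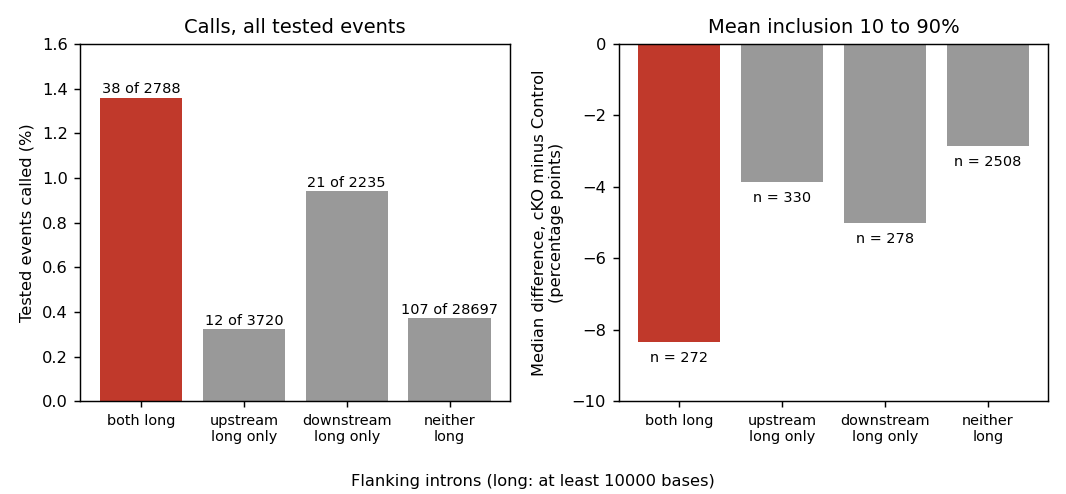
Percent of tested events called (left, y axis) and median difference in inclusion in percentage points for events with a mean inclusion of 10 to 90% (right, y axis), by whether the flanking introns have at least 10000 bases (x axis), for exons of more than 30 and fewer than 400 bases. Numbers give the called and tested events and the n behind each median, and the bars of exons between long introns reach 1.36% and -8.35 points.

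Within the exons between long introns, the share of calls was similar for shorter introns of up to 50000 bases. It was 23 of 1604 (1.43%) at 10000 to 20000 bases, 13 of 908 (1.43%) at 20000 to 50000 bases and 2 of 276 (0.725%) above. Medians in the band of 10 to 90% inclusion were -6.38, -11.5 and -12.5 points, the last from 19 events. Around the limit of the rule, 6 of 270 events just inside it (10000 to 11000 bases) and 4 of 351 just outside it (9000 to 10000 bases) were called, with medians of -0.497 and -0.563 points over all these events. In the band of 10 to 90% inclusion the medians were -4.29 points just inside (33 events) and -7.64 points just outside (29 events). The event nearest to the limit from inside, in Matn2 with 10002 bases, differed by -6.92 points and the nearest from outside, in Ric8b with 9995 bases, by 1.34 points, and neither was called. The distance is that between the exons of an event, and in 29 of the 38 called events and 2219 of 2788 tested ones (79.6%) another annotated exon of the gene lies in at least 1 of the gaps.

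Exons of at most 80 bases held 19 of the 38 calls. Of tested events with exons of 31 to 80 bases, 19 of 722 were called (2.63%), against 13 of 1361 (0.955%) at 81 to 150 bases and 6 of 705 (0.851%) above 150 bases, and medians were -0.983, -0.512 and -0.625 points. These shares are descriptions without a test, as are those that follow. The median length was 83 bases for the 35 called exons and 111 for the 1865 tested ones. Of the called exons 20 lie within coding sequence (57.1%), 7 in the 5′ UTR (20%), 4 in non-coding transcripts, and 2 each hold a start or a stop codon. Among all tested exons between long introns 76.7% were coding and 9.95% were in the 5′ UTR. An exon that is the second of its transcript was found in 15 of the 35 (42.9%), beside 29.5% of those tested between long introns and 18.3% of all tested exons.

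Reading frame and base composition were close to those of other tested exons. A length that is a multiple of 3 was found in 8 of the 20 called coding exons (40%) and in 40.2% of the tested coding exons between long introns. None of the 20 contains a stop codon in its own frame. That holds by construction, since only exons wholly inside an annotated coding sequence were counted as coding. Median GC content was 47% in called exons, 48.4% in tested exons between long introns and 49.5% in all tested exons. The exon ended in AG in 17 of 35 called exons (48.6%), beside 54.7% and 55.6%, which covers the last 2 exon bases before the 5′ splice site. The Skap1 and Cd96 exons printed above end in GAG and that of Bcl11b in CAG, whereas that of Tgfbr2 ends in ATT. The motif CCGTTA, searched on the transcribed strand only, was in 0 of 35 called exons, 15 of 1860 tested exons between long introns with a sequence (0.806%) and 0.601% of all tested exons.

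Expression of the host genes was measured from the same libraries as normalized counts, each count divided by a size factor of its library. Of the 985 genes with a tested exon between long introns, 970 passed the filter on expression, and 2 were called higher and 1 lower at an adjusted p under 0.05 and a log2 fold change beyond 1 (limma), namely Fbxo36, Mgmt and Patj. That is 0.309%, beside 0.564% of all 11001 tested genes. None of the 28 tested host genes of called exons was called by limma, and 1 had an adjusted p under 0.05, beside 0.973% of all tested genes. Their log2 fold changes ran from -0.51 to 0.96 with a median of -0.08.

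The gene with that adjusted p was Pvt1, with 559, 434 and 442 normalized counts in Control and 941, 1003 and 833 in cKO, a log2 fold change of 0.96 ± 0.15 (SE, n = 3 a group, limma, adjusted p = 0.0495). Gm2682 had no symbol in the expression table and was not tested. It had 9346, 8191 and 10250 normalized counts in Control and 4148, 5268 and 4480 in cKO, so all cKO libraries were lower. Prmt3, an arginine methyltransferase, had the lowest fold change of the tested ones, at -0.51 ± 0.09 (adjusted p = 0.0565).

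The other genes with the largest falls in inclusion had no call in limma. Bcl11b had 33628, 37560 and 32674 normalized counts in Control and 24515, 30541 and 33173 in cKO (log2 fold change -0.24 ± 0.13, limma adjusted p = 0.408). Foxn3 had 21620, 23096 and 20940 against 24321, 20382 and 21237. Zbtb20 had 6183, 5499 and 3389 against 4435, 6622 and 4208. Cd226 was slightly higher in every cKO library, with 6400, 5475 and 5921 against 6785, 6779 and 6976 (adjusted p = 0.297). Fbxo34 had 2227, 2296 and 2335 against 2501, 2089 and 2367, Lcorl 2054, 2151 and 1703 against 1648, 1929 and 1768, and Gng12 1070, 1103 and 1023 against 1055, 898 and 1020. In Sp100 every cKO library was lower, with 66020, 73990 and 80818 in Control and 57695, 55383 and 58323 in cKO (adjusted p = 0.159).

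**Figure D5:**
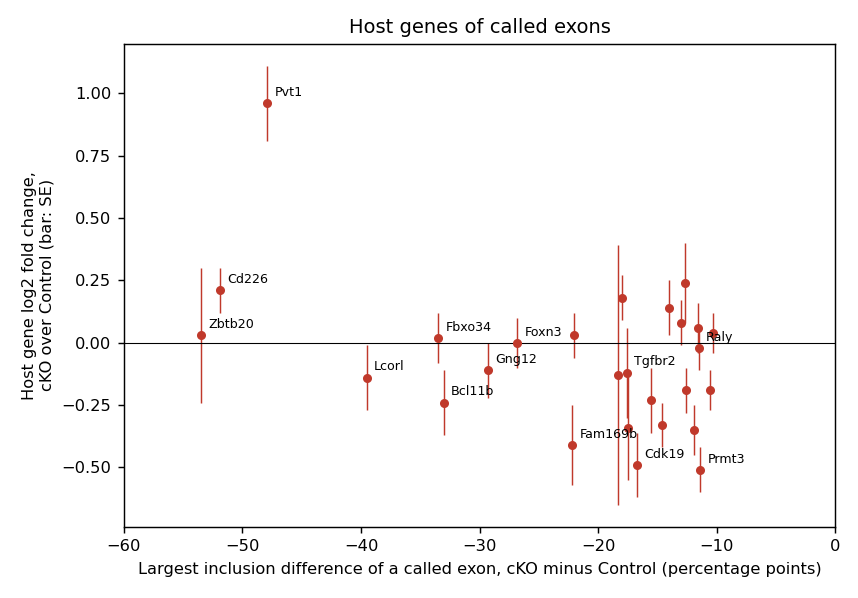
Log2 fold change of the host gene, cKO over Control (y axis, bars are the SE), against the largest difference in inclusion of a called exon of the gene in percentage points (x axis), for 27 tested host genes. All but Pvt1 (0.96) lie between -0.51 and 0.24.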

How the data were processed

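RNA of 6 libraries of sorted CD4+ T cells was analysed. Adapters were removed by the authors with cutadapt, alignment to GRCm38 used STAR, and counts per gene were divided by DESeq2 size factors, which makes the deposited values a normalized signal for each gene in each library. All of them were whole reads (100%) within 0.01 reads after multiplication by the size factor. For splicing, the deposited rMATS table lists counts of the included and the skipped form of each event, drawn from junction and exon reads, with 3 unnamed values a condition. Its columns of p-values, FDR and inclusion levels, and the deposited DESeq2 comparison of fold changes and p-values, hold the authors' own results and were not used. The number of columns of other samples was 0.

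The 39173 events that averaged 20 reads or more in Control and in cKO were fitted by a quasi-binomial model of inclusion against skipping counts. The dispersion was moderated with limma 3.58.1 (R 4.3.3), with a prior from the 7838 events in which the less frequent form averaged 5 reads or more a library and a floor of 1. P-values were adjusted by Benjamini-Hochberg over all tested events. For host genes, limma was run on log2(normalized count + 1) over the 11001 genes that had a symbol and averaged 100 or more in Control or cKO, a scale that understates changes of low genes. edgeR 4.0.16 was an alternative in both analyses, on the recovered whole reads for genes. The use of strand in counting is not stated, so overlapping genes may share reads. Both tests were tested on simulated data. No libraries of a condition agreed within sampling noise (chi-square per gene of at least 16.39). Exon places and sequences came from GENCODE M21, where 60 exons had no match.

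The members and lists were chosen with earlier results of these data known, and so was the model. Named exons are the 12 called exons with the largest fall and up to 6 with the largest rise whose libraries do not overlap, those in genes the paper names for splicing (Mdm4, Foxn3, Arih2, Ptprc, Ptpre, Sp100, Stk19, Bcl11b, Vps37a and Cln3, of which only Foxn3, Sp100 and Bcl11b had a tested one), up to 4 of smallest p in each gene list, the called one with the longest shorter intron and the 3 with the most reads at a Control inclusion of 20 to 80%. Some items that this rule names are not reported here. Host gene expression was taken for the first 2 of these groups and for Cd2bp2. Alternatives were other read minimums, priors, tests and call thresholds, other intron limits and fits without 1 library.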

Additional observations from a re-analysis of the deposited data

How the results depend on the processing

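The direction of the calls between long introns did not change in any alternative, since 0 events were called higher in each. The number of calls did, from 38 called events (1.36%, beside 0.495% of all tested events) in the reported fit. A dispersion prior over all tested events gave 71 (2.55%, beside 0.947%). edgeR and limma on log2 ratios over all events gave 0 each (0%), and 1 and 0 calls among all 39173 tested events. On events with a rarer form of at least 5 reads, settings added after seeing the data, edgeR gave 20 (4.05%) and limma 0, with a median of -3.15 points. Over all tested events cut down in this way edgeR called 0.766%. A dispersion not below each event's own estimate, also added after seeing the data, gave 33. No minimum difference gave 70 (2.51%), the event with the most reads of each exon 19, an intron minimum of 20000 bases 15 and one of 5000 bases 58. Leaving out 1 library gave 22 to 38 calls (0.793 to 1.36%), the lowest without the first listed Control library and 25 without the second, and 17 of the 38 calls were kept in all 6 such fits. The median difference, -0.632 points in the reported fit, was -0.704, -0.513 and -0.803 points with a minimum of 10 reads, of 50 reads or of 1 read, and -0.663 to -0.511 points with 1 library left out. Called host genes were 3, and 0 to 2 with 1 library left out. All 38 called events had a difference below 0 in each setting that gave them a value. The cause of these changes was not tested, apart from the smaller number of events in the sets that were cut down. No paired analysis was possible because the labels give the libraries of the 2 conditions no shared replicate numbers. Low read numbers limit the exons with under 500 reads, and counting intervals would cover counting error only.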
